A study of Mus musculus with 8 samples.

Results

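A set of 10 imprinted genes was described in C2C12 cells, a mouse myoblast line, with and without an shRNA against Atad2: Igf2, H19, Dlk1, Meg3, Peg3, Cdkn1c, Plagl1, Grb10, Igf2r and Mest. They were picked by symbol and are 10 of 35976 rows in the table. The choice was made with the measured difference between the 2 shRNA groups known, so their levels and differences are given as a description, with no test. Atad2 encodes a bromodomain ATPase that binds acetylated chromatin. The study asked how its knockdown changes the transcripts of myoblasts. In all, 4 libraries came from cells with a non-targeting shRNA (control) and 4 from cells with the Atad2 shRNA, all lysed 48 h after transfection. The labels name no other treatment or allele, and give no sign of separate cultures behind the 4 libraries of a group. A p-value here therefore speaks of the variation among libraries, which may be technical.

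An imprinted gene is transcribed mainly from the copy inherited from 1 parent, because the parental copies carry different DNA methylation at a control region set in the germ line. Imprinted genes lie in clusters, in which paternally and maternally expressed genes often share enhancers or a long noncoding RNA. At H19-Igf2, the insulator protein CTCF binds the unmethylated maternal control region and keeps shared enhancers from Igf2, so Igf2 is known as paternally expressed and H19 as maternally expressed. In skeletal muscle, both genes are known to be induced as myoblasts differentiate. The files hold no allele information, so here "paternally" and "maternally expressed" are textbook classes in mouse, not measurements. Some of these classes are known only in certain tissues, and whether they hold in C2C12 cells was not measured.

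Atad2 itself was at 14.67 ± 0.06 (SD, n = 4) in control and 11.93 ± 0.14 in Atad2 shRNA libraries, on the scale of log2(normalized count + 1) used for every level below. It was 6.66-fold lower, with 27186 to 29381 reads against 3306 to 4086. Depth was 61.4 to 73.0 Mreads (M for mega) per library in control and 50.3 to 72.3 Mreads in Atad2 shRNA cells. A count of 3 reads, taken as the limit that a count of 0 allows, was 0.0411 to 0.0596 RPM (reads per Mread of the library), which covers counting error only. Replicates differed by more than sampling noise, so no library was counted as a copy of another. Myoblast markers summed to 857 to 904 RPM in control and 878 to 966 in Atad2 shRNA libraries, a sum in which abundant genes weigh most. Of the 6, 3 were higher and 3 lower at a limma adjusted p under 0.05, which 60.4% of all tested genes passed. The log2 differences were -1.28 for Myf5, -0.96 for Cdh15 and -0.25 for Chrna1. They were 0.38 for Des, 0.25 for Myod1 and 0.10 for Itga7.

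Several of the genes host microRNAs, whose mature sequences from RefSeq (GRCm38.p6) are shown because they lie within H19, Igf2 and Mest, whose levels differed between the groups. Capitals mark the seed, bases 2 to 8, and no 2 of the 6 sequences share a seed. The miR-675 pair lies in an exon of H19, the miR-483 pair in Igf2 outside the exons and the miR-335 pair in Mest outside the exons.
mmu-miR-675-5p (H19): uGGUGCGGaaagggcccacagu
mmu-miR-675-3p (H19): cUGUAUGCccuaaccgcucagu
mmu-miR-483-5p (Igf2): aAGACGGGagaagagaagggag
mmu-miR-483-3p (Igf2): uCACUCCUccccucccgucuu
mmu-miR-335-5p (Mest): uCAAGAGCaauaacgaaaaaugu
mmu-miR-335-3p (Mest): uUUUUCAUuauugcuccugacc
The table's own rows for Mir675 and Mir483 held 0 reads in all 8 libraries, and Mir335 held 2 reads in 1 library. The labels describe no small-RNA selection, so the mature forms were not measured.

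RefSeq promoter windows, 250 bases before to 50 after a start site, matched 8 of the 10 genes with 15 windows. H19 and Cdkn1c, both lower in Atad2 shRNA cells, had no window, which left only Peg3 among the lower genes. No comparison of promoters by direction was therefore made. The letters TGCCGC, which the imprint-protecting zinc finger protein ZFP57 is known to bind when methylated, were sought on both strands and counted apart from CAGCTG, an E-box of the kind myogenic factors bind. TGCCGC was in 6 of the 15 windows, from Igf2, Mest, Plagl1, Grb10 and Meg3, and in 11.6% of all 32851 promoter windows. Among the 6 were 2 Mest windows that overlap almost wholly and hold the same sites, so these sites were counted in both. CAGCTG was in 1 window, of Mest, and in 16.3% of all. The windows of the 3 genes that were higher in Atad2 shRNA cells and held TGCCGC are shown 5′ to 3′ on the gene's strand, with the match in capitals (GCGGCA is the same site read from the other strand).
Igf2, chr7:142661222-142661521, minus strand: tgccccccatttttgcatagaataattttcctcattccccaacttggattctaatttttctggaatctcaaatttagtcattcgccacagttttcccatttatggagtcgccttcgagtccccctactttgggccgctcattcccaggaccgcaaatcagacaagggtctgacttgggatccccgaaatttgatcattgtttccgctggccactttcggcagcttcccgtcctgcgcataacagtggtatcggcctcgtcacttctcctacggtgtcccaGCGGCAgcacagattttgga
Mest, chr6:30737800-30738099, plus strand: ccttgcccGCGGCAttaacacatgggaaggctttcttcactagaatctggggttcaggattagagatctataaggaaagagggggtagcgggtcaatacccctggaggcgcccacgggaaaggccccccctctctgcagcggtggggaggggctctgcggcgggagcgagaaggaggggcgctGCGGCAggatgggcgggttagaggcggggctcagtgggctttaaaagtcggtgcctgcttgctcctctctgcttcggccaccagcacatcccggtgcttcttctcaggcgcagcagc
Plagl1, chr10:13090582-13090881, plus strand: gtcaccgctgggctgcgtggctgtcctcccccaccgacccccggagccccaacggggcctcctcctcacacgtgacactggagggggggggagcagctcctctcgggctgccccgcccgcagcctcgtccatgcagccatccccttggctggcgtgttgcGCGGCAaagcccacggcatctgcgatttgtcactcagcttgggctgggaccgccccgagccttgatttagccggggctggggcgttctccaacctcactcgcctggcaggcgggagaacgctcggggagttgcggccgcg
These windows held 14, 17 and 26 CG pairs in turn, against a median of 7 over all windows, and 12 of the 15 windows were above that median. A match is a description of the letters only, and the deposited table does not tell which of the 4 Igf2 start windows was used.

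Igf2 and H19 differed in opposite directions and were, of the 10 genes, the ones whose levels differed most. Igf2 encodes insulin-like growth factor 2, a fetal growth factor that also promotes myoblast differentiation. The gene lies at chr7:142650768-142666816 on the minus strand (GRCm38, the assembly that mm10 names). Its level was 7.15, 6.44, 6.66 and 6.45 in the control libraries and 10.64, 10.81, 10.57 and 10.69 in the Atad2 shRNA libraries. Every Atad2 shRNA library was above every control library. The difference was 4.00 ± 0.13 (SE), or 16.0-fold, and its place by size was 17 among the 14703 genes tested, counted from the highest. In reads, Igf2 had 85 to 150 in control and 1178 to 1872 in Atad2 shRNA libraries.

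H19, a noncoding RNA abundant in embryonic muscle, lies at chr7:142575530-142578146 on the same strand, 72.6 kb from Igf2. Its level was 14.41, 14.49, 14.18 and 14.28 in the control libraries and 10.88, 10.90, 10.82 and 11.51 in the Atad2 shRNA libraries. All 4 Atad2 shRNA libraries were below all control libraries, and the fourth was the highest of them. The difference was -3.31 ± 0.10 (SE), or 9.92-fold lower, in place 62 from the lowest of the genes tested. Without the fourth Atad2 shRNA library it was -3.47. Reads ran from 19989 to 23438 in control and from 1405 to 2518 in Atad2 shRNA libraries.

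Per length, in reads per kilobase of merged exons per Mread (RPKM), the levels of the 2 genes could be set side by side. H19 was at 137 ± 12 RPKM in control and 13.3 ± 3.4 in Atad2 shRNA libraries (SD, n = 4). Igf2 was at 0.292 ± 0.072 RPKM in control and 4.39 ± 0.30 in Atad2 shRNA libraries. H19 thus stayed above Igf2 in both groups on this scale. Of the reads on either gene, Igf2 held 0.646, 0.371, 0.537 and 0.433% in the control libraries. In the Atad2 shRNA libraries the share was 45.9, 48.4, 45.6 and 36.2%. The 95% Wilson intervals ran from 0.301 to 0.757% over the control libraries and from 34.7 to 49.9% over the Atad2 shRNA libraries, covering counting error only. The log2 ratio of Igf2 to H19 went from -7.66 ± 0.35 to -0.35 ± 0.32 (SD, n = 4), a change of 7.31 or 159-fold, and lay between 7.18 and 7.47 with an offset of 8 or with any 1 library left out. The share was computed after the values were seen.

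**Figure D1:**
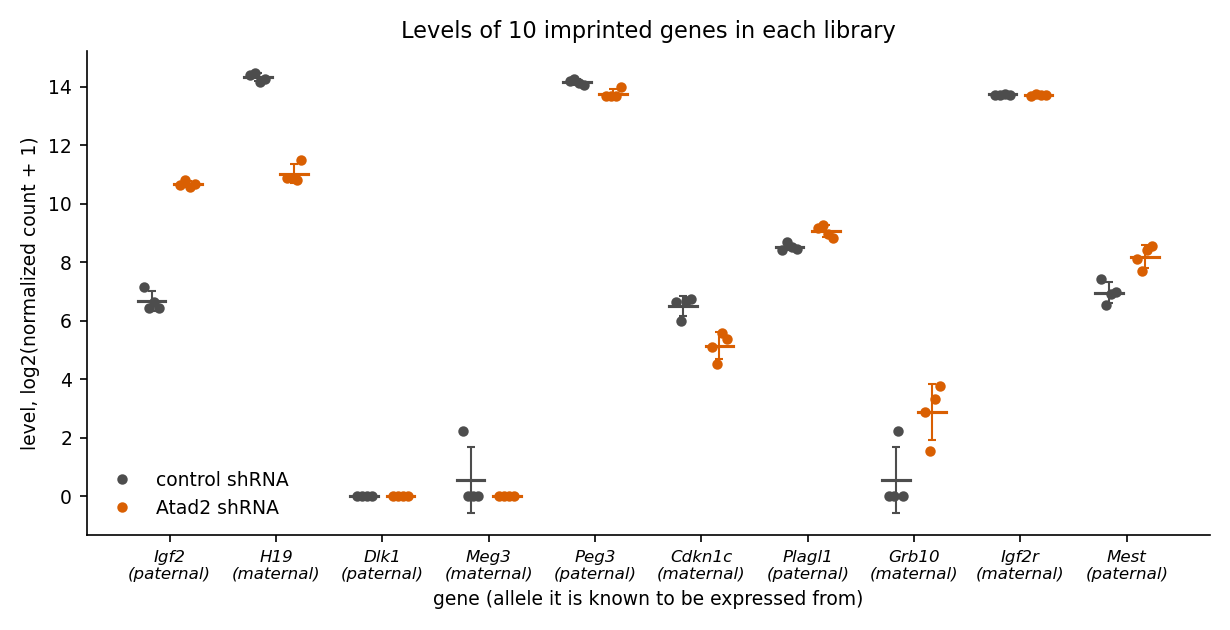
Level of each of the 10 genes, as log2(normalized count + 1), in the 4 control shRNA (grey) and 4 Atad2 shRNA (orange) libraries; horizontal bars are group means and whiskers are SD. Igf2 is higher and H19 lower in every Atad2 shRNA library, Igf2r overlaps between groups, and Dlk1 is at 0 in all 8 libraries.

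Markers of differentiated muscle rose, as Igf2 did, while H19 fell. The summed level of 7 myotube markers was 5.13 to 6.11 RPM in control and 66.5 to 84.4 in Atad2 shRNA libraries. All 5 markers that passed the filter on low values rose, among them the myogenic factor Myog by 2.15 and embryonic myosin Myh3 by 5.44 on the log2 scale. Myh3, at 2.14 in control and 7.58 in Atad2 shRNA libraries, passed the filter only through the latter. Of markers of other cell types, the adipocyte genes Adipoq, Cfd and Lep, the macrophage gene Adgre1 and the epithelial gene Epcam were at 0 reads throughout. Sums of the macrophage list were 4.04 to 4.93 against 8.31 to 10.5 RPM, of the osteoblast list 0.931 to 1.71 against 2.43 to 3.21, and of the epithelial list 4.15 to 5.69 against 0.876 to 1.65. The adipocyte list summed to 0.473 to 0.651 against 0.0584 to 0.298 RPM and the endothelial list to 0.726 to 1.01 against 0.437 to 0.775. In these 5 lists of 5 genes each, 1 of 2 tested macrophage and 1 of 2 osteoblast markers rose. In the same lists, 2 of 2 epithelial and 1 of 1 adipocyte markers fell, and the 3 tested endothelial markers did not pass. The epithelial marker Cdh1, at 5.96 in control and 2.71 in Atad2 shRNA libraries, passed the filter only through control. The part of differentiation or of other cells in the Igf2 and H19 values was not tested. In bulk RNA, fewer cells that express a gene and less RNA per cell cannot be told apart.

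Genes beside the pair did not share 1 direction. Within 500 kb on either side, a window chosen after the values were seen, 11 other genes were tested. Of these, 5 rose, 4 fell and 2 did not pass, where 30.8% rose and 29.6% fell over all tested genes. Mrpl23, a mitochondrial ribosomal protein gene and the nearest tested gene on the H19 side, differed by 0.04 ± 0.06 (SE; limma adjusted p = 0.617). Farther out on that side, the fast-muscle troponin genes Tnni2 and Tnnt3 rose by 3.96 ± 0.64 and 2.33 ± 0.43, the lysosomal protease Ctsd by 0.88 ± 0.03 and Ifitm10 by 2.70 ± 0.30. Lsp1 fell by 0.41 ± 0.05 in the same stretch, and Dusp8, the farthest out, by 1.37 ± 0.24. The other falls, of Cd81 and Tssc4 beyond Igf2, were of 0.09 ± 0.04 and 0.17 ± 0.06. Beyond Igf2, the nearest tested gene was Tspan32, a tetraspanin, which rose by 2.68 ± 0.68, or 1.45 with an offset of 8. Mean levels were 1.14 in control and 5.10 in Atad2 shRNA libraries for Tnni2, and 2.11 and 4.79 for Tspan32. Both are among the 5 that rose, but they passed the filter on low values only through the Atad2 shRNA libraries. They could therefore be counted only as rises. Ins2, the imprinted insulin gene beside Igf2, had at most 1 read in a library and was not tested.

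**Figure D2:**
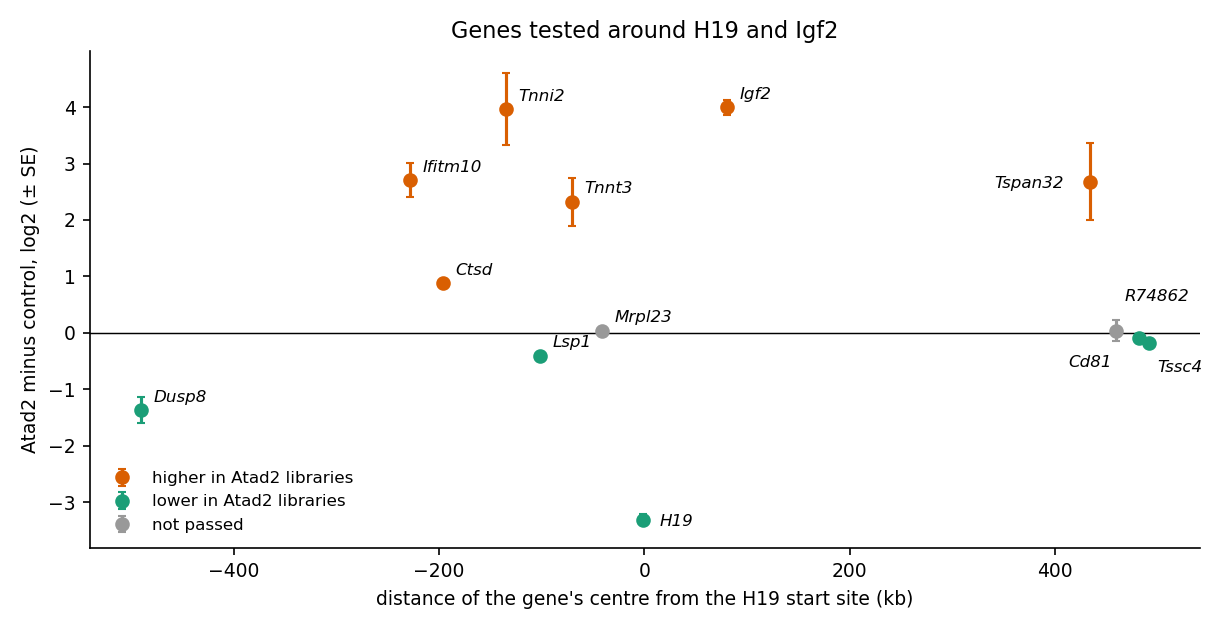
Log2 difference, Atad2 minus control (± SE, 4 libraries in each group), of the 13 tested genes within 500 kb of Igf2 and H19, against the distance of each gene's centre from the H19 start site in kb. H19 at -3.31 and Igf2 at 4.00 are the extremes, and Mrpl23, between H19 and the troponin genes Tnnt3 and Tnni2, lies near 0.

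Over the whole table, 8880 of 14703 tested genes passed a limma adjusted p under 0.05 (60.4%), with 30.8% higher and 29.6% lower in Atad2 shRNA cells. Against that background, 7 of the 10 imprinted genes passed the filter on low values (mean level above 3). Of these 7, 3 were past the threshold as higher (Igf2, Mest, Plagl1), 3 as lower (H19, Peg3, Cdkn1c) and Igf2r did not pass. The 4 values of each group did not overlap for 6 of the 7, as for 53.5% of all tested genes. Since the choice of the genes used this contrast, nothing is read from these counts.

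Genes that act on the IGF2 protein or in the same pathway did not move together. Igf2r, the receptor that takes IGF2 to the lysosome and so removes it, lies at chr17:12682406-12769706. Its level was 13.74, 13.74, 13.77 and 13.73 in control and 13.70, 13.77, 13.72 and 13.72 in Atad2 shRNA libraries. The groups overlapped, and the difference was -0.02 ± 0.03 (SE). Under quantile normalization it was -0.13, past the threshold. Per length, Igf2r was at 23.9 ± 0.4 RPKM in control and 22.4 ± 0.5 in Atad2 shRNA libraries (SD, n = 4). Grb10, an adaptor that damps insulin and IGF receptor signalling, had 0, 0, 4 and 0 reads in control and 7, 2, 7 and 11 in Atad2 shRNA libraries. It did not pass the filter, and its groups overlapped in level.

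A list of 18 genes of IGF signalling outside the 10 held 14 tested genes, of which 5 rose, 6 fell and 3 did not pass (30.8% rose and 29.6% fell over all tested genes), with a median difference of -0.02 against -0.01 over all tested genes. Among binding proteins, which hold IGFs outside the cell, Igfbp3 rose by 2.54 ± 0.10 (SE), Igfbp2 by 0.58 ± 0.07 and Igfbp6 by 0.13 ± 0.04, a call lost under quantile normalization. In the other direction, Igfbp5, the main one of muscle precursors, fell by 1.58 ± 0.08, Igfbp4 by 1.31 ± 0.23 (-0.87 under quantile normalization) and Igfbp7 by 0.79 ± 0.04. Pappa, a protease that cleaves binding proteins and frees IGF, rose by 0.76 ± 0.09. Irs1, the adaptor downstream of the IGF1 receptor, fell by 1.20 ± 0.05. The receptor gene Igf1r was at 12.90 ± 0.02 and 12.97 ± 0.05 (SD, n = 4) and did not pass (limma adjusted p = 0.0839).

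Cdkn1c and Plagl1, both known to restrain the cell cycle, differed in opposite directions. Cdkn1c, which encodes the cyclin-dependent kinase inhibitor p57 and is maternally expressed, lies at chr7:143458339-143461059. Its level was 6.65, 6.01, 6.69 and 6.74 in control and 5.12, 4.52, 5.60 and 5.37 in Atad2 shRNA libraries. The groups did not overlap, with 63 to 125 reads against 23 to 37, and the difference was -1.37 ± 0.28 (SE). Without the second control library, the lowest of its group, it was -1.54, and under quantile normalization -0.89. Plagl1 encodes a zinc finger factor known to restrain the cell cycle and to regulate other imprinted genes, and it is paternally expressed (chr10:13090832-13131694). It was at 8.43, 8.69, 8.52 and 8.47 in control and 9.19, 9.29, 8.98 and 8.83 in Atad2 shRNA libraries, so every Atad2 shRNA library was higher. The difference was 0.54 ± 0.11, or 1.46-fold.

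Peg3 and Mest, both paternally expressed, also went opposite ways. Peg3 encodes a zinc finger protein of stem and precursor cells (chr7:6703892-6730462). It was at 14.21, 14.28, 14.14 and 14.07 in control and 13.68, 13.68, 13.71 and 13.99 in Atad2 shRNA libraries. All Atad2 shRNA libraries were lower, the fourth the least, and the difference was -0.41 ± 0.05 (SE), or 1.33-fold lower. Without the fourth library it was -0.48. Mest encodes an enzyme of the alpha/beta hydrolase fold made in embryonic mesoderm (chr6:30733506-30748466). It was at 7.44, 6.55, 6.93 and 6.97 in control and 8.10, 7.70, 8.44 and 8.57 in Atad2 shRNA libraries. Again the groups did not overlap, and the difference was 1.23 ± 0.20, or 2.35-fold, on 92 to 184 reads against 217 to 327.

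The Dlk1-Dio3 cluster gave no reads or few. Dlk1, a Notch-family ligand of precursor cells, had 0 reads in all 8 libraries. Meg3, the maternally expressed noncoding RNA of the cluster, had 4 reads in the first control library and 0 in the other libraries. Rtl1, Dio3 and Rian had 0 reads throughout, and Mirg had 6 and 4 reads in 2 Atad2 shRNA libraries and 0 elsewhere. No gene of the 6 was tested, so whether the cluster's paternal and maternal genes oppose each other was not detectable at this depth.

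Per length, the 7 tested genes had the control order H19 (137 RPKM), Igf2r (23.9 ± 0.4), Peg3 (22.5 ± 1.4), Plagl1 (0.764 ± 0.063), Cdkn1c (0.737 ± 0.157), Mest (0.524 ± 0.135) and Igf2 (0.292 ± 0.072; SD, n = 4). Igf2r and Peg3 lay within their summed spreads of each other, as did Plagl1, Cdkn1c and Mest among neighbours. In Atad2 shRNA libraries the order was Igf2r (22.4 ± 0.5), Peg3 (16.1 ± 1.9), H19 (13.3 ± 3.4), Igf2 (4.39 ± 0.30), Mest (1.17 ± 0.31), Plagl1 (1.06 ± 0.14) and Cdkn1c (0.271 ± 0.084). Here Peg3 and H19, and Mest and Plagl1, did not differ beyond their spreads.

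Each imprinted locus was then read for its paternally and maternally expressed genes. Of 21 loci listed, 11 had at least 1 tested gene of each kind, and each locus was represented by its tested gene with the highest mean level of each kind. The 2 genes were past the threshold in opposite directions at 3 loci, in the same direction at 3, and at 5 loci at least 1 of them did not pass. The outcome depends on the gene chosen. The Kcnq1ot1 locus is among the 5 because Osbpl5 did not pass, while Cdkn1c and Kcnq1ot1 there were both lower. Over all tested genes 30.8% rose and 29.6% fell, so pairs of unrelated genes can also be opposed or alike. The locus counts were not tested against that. Among the 8 loci of the 10 genes, 5 had both kinds, and 2 of these were opposed, H19-Igf2 and Mest.

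At the Mest locus, Copg2, a coat-protein gene known as maternally expressed in some tissues, was at 11.53, 11.56, 11.64 and 11.64 in control and 11.16, 11.04, 10.97 and 11.23 in Atad2 shRNA libraries. It fell by 0.49 ± 0.05 (SE; limma adjusted p = 8.81e-08) where Mest was higher. The log2 ratio of Mest to Copg2 went from -4.62 ± 0.39 to -2.90 ± 0.37 (SD, n = 4), with no overlap between groups. Copg2 overlaps the end of Mest on the other strand, and the strand setting of the counting is not given in the sources used here. Klf14, the other gene listed there, had 0 reads.

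At the Peg3 locus both kinds were lower. Zim1, a maternally expressed zinc finger gene 7.35 kb from Peg3, was at 10.12, 10.14, 9.89 and 9.93 in control and 8.81, 8.77, 8.89 and 9.29 in Atad2 shRNA libraries. It fell by 1.08 ± 0.10 (SE; limma adjusted p = 1.02e-08), more than Peg3 was lower, so the log2 ratio of Peg3 to Zim1 went from 4.15 ± 0.07 to 4.83 ± 0.09 (SD, n = 4). Usp29, which starts 0.097 kb from Peg3 and is also paternally expressed, had 23 to 44 reads and differed by 0.18 ± 0.31 (SE; limma adjusted p = 0.647).

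At the Kcnq1ot1 locus, Cdkn1c and the noncoding RNA of the other parental copy were both lower. Kcnq1ot1, the paternally expressed RNA known to silence the cluster in cis, was at 11.69, 12.05, 11.92 and 11.55 in control and 10.94, 10.82, 11.62 and 11.13 in Atad2 shRNA libraries. It fell by 0.67 ± 0.12 (SE; limma adjusted p = 6.37e-05), with 1 Atad2 shRNA library above the lowest control. Of the other maternally expressed genes there, Tssc4 fell by 0.17 ± 0.06 (limma adjusted p = 0.0130), a call lost without the first control library. Osbpl5, the most abundant maternal gene there by level, differed by 0.08 ± 0.04 and Slc22a18 by -0.10 ± 0.44, and neither passed. Phlda2, Kcnq1 and Ascl2 had at most 8 reads in a library.

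At the Igf2r locus neither kind passed. Airn, the paternally expressed RNA known to silence Igf2r in cis, had 26 to 40 reads and differed by 0.07 ± 0.31 (SE; limma adjusted p = 0.856). It overlaps Igf2r on the other strand, so its reads are uncertain. Slc22a2 and Slc22a3 had at most 1 read. At the Grb10 locus only Ddc, known as paternally expressed in heart, was tested, and it rose by 1.13 ± 0.36 (limma adjusted p = 0.0108) on 18 to 33 reads against 19 to 70, with overlapping groups. Plagl1 stood alone at its locus.

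**Figure D3:**
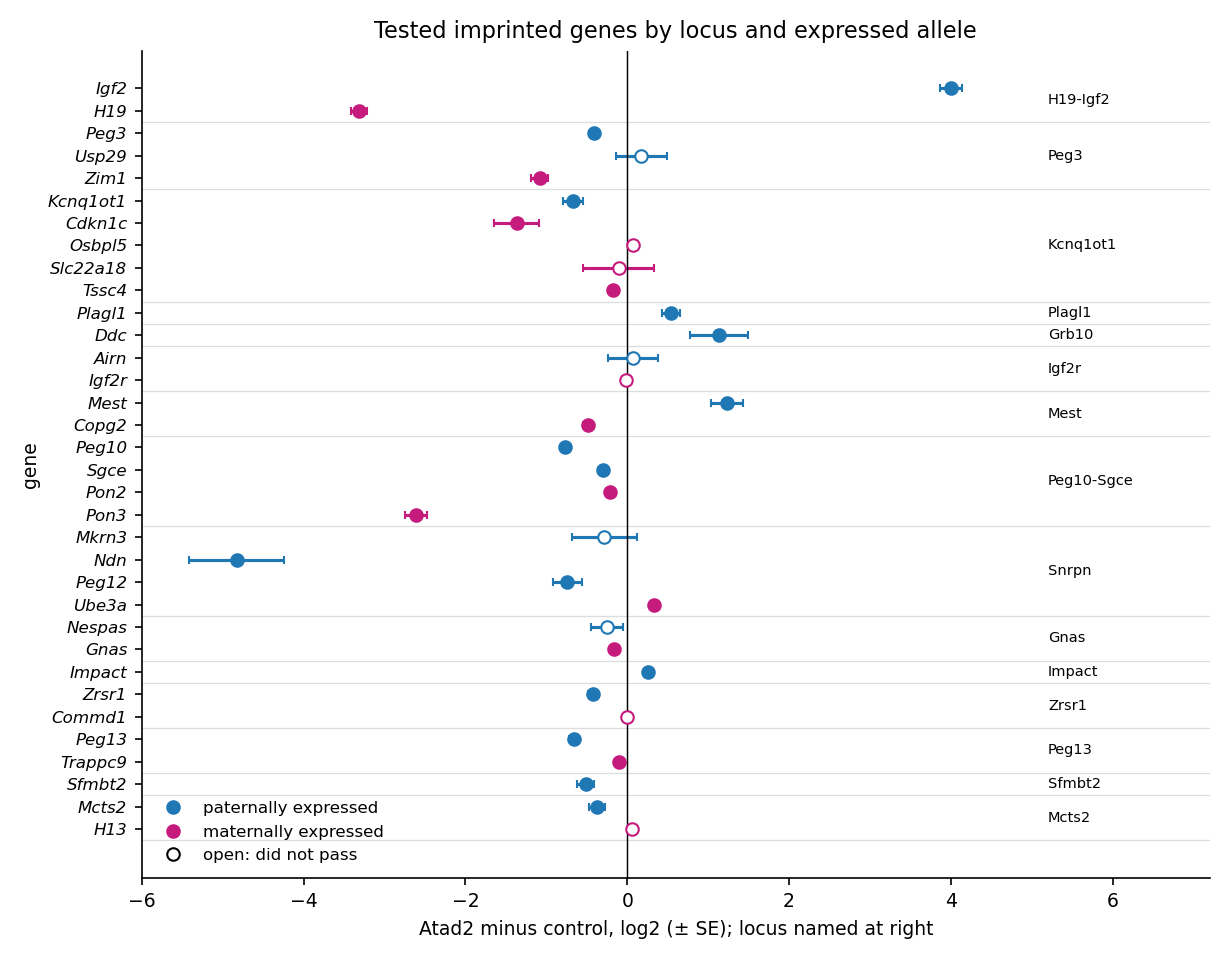
Log2 difference, Atad2 minus control (± SE, 4 libraries in each group), of the 34 tested imprinted genes, by locus; blue marks paternally and pink maternally expressed genes, and open points did not pass. Igf2 and H19 lie at 4.00 and -3.31 on opposite sides of 0, while Peg3 and Zim1, and Kcnq1ot1 and Cdkn1c, lie on the same side.

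Beyond the 10 genes, 51 other imprinted genes were in the table, 27 of them tested. Of these 27, 3 rose, 16 fell and 8 did not pass, where 30.8% rose and 29.6% fell over all tested genes, with a median difference of -0.25 against -0.01 over all tested genes. The 15 paternally expressed ones held 2 that rose and 9 that fell, and the 12 maternally expressed ones held 1 that rose and 7 that fell. Falls outnumbered rises in both parental classes, while over all tested genes the 2 directions were nearly equal in calls of any size. At 2-fold or more, 1 of the 27 rose and 3 fell, against 370 that rose and 1266 that fell over all tested genes. Several of these genes share a locus, and the list was chosen with earlier results of these data known, so the counts are a description only.

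The largest fall was of Ndn, the paternally expressed necdin gene of the Prader-Willi region. It had 45, 37, 54 and 49 reads in control and 2, 1, 0 and 0 in Atad2 shRNA libraries. Its mean levels were 5.44 and 0.62, so it passed the filter only through control and could be counted only as a fall. No p-value is therefore given for Ndn, which is among the 16 falls. Its difference was between -5.36 and -2.55 in the 11 of 16 alternatives that tested it. In the same region Peg12 fell by 0.74 ± 0.18 (SE) and Ube3a, the maternally expressed ubiquitin ligase gene, rose by 0.33 ± 0.04 (limma adjusted p = 1.00e-07). The region was the third with opposed genes. Ube3a is known to be imprinted mainly in neurons.

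At Peg10-Sgce, all 4 tested genes fell. Peg10, a retrotransposon-derived gene, fell by 0.77 ± 0.05 from 14.59 ± 0.02 (SD, n = 4), and Pon3, a maternally expressed paraoxonase, fell by 2.61 ± 0.14 on 632 to 849 reads against 97 to 115. At Peg13, the noncoding RNA Peg13 fell by 0.66 ± 0.05, and its host gene Trappc9 by 0.10 ± 0.04 (limma adjusted p = 0.0308). Impact, a paternally expressed regulator of translation, rose by 0.26 ± 0.04, or 0.16 under quantile normalization.

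**Figure D4:**
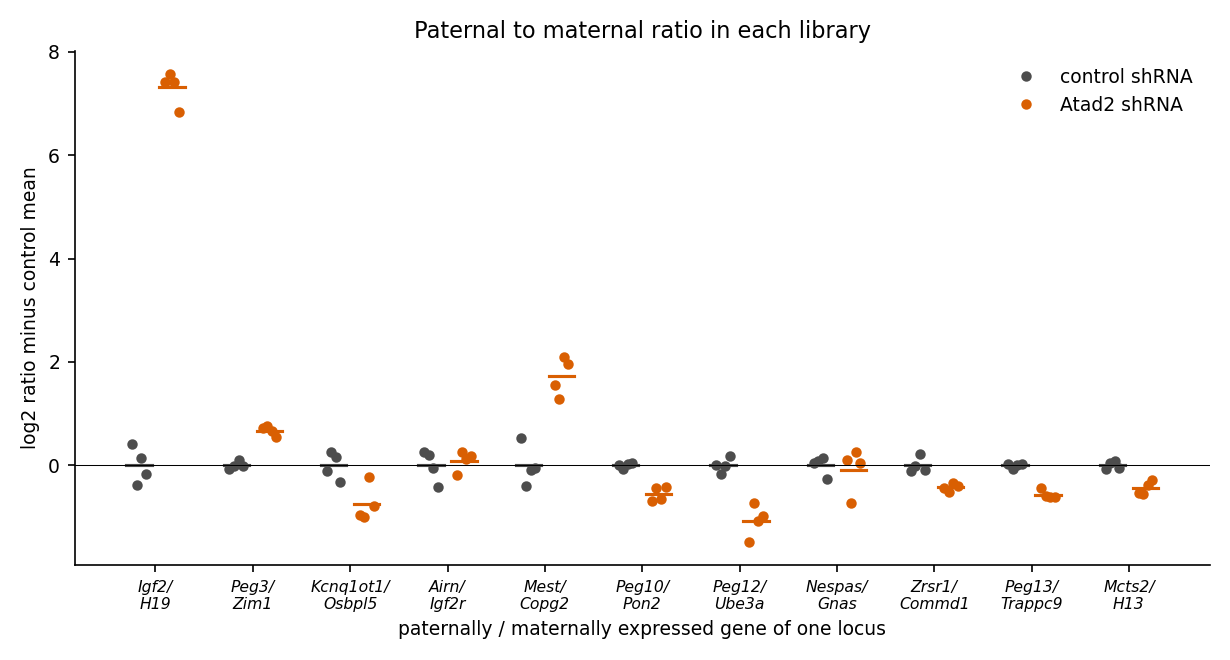
Log2 ratio of the most abundant tested paternally expressed gene to the most abundant maternally expressed gene at 11 loci, in each library, minus the control mean of that ratio; short bars are group means. The ratio rises by 7.31 at H19-Igf2, by 1.72 at Mest and by 0.67 at Peg3, and falls by 1.07 for Peg12 to Ube3a.

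Regulators of imprints differed by small amounts, none of those that passed by more than 0.38 on the log2 scale. Of 22 listed genes that set or keep imprints, 19 were tested, and 12 rose, 0 fell and 7 did not pass, with a median difference of 0.11. Over all tested genes 60.4% passed, so a count of 12 in 19 passing is near the background. By direction, 30.8% rose and 29.6% fell over all tested genes, so the split of 12 and 0 was more uneven than that background. At an unadjusted p under 0.05, limma also gave 0 that fell, as did voom on the recovered reads. Under median centring the split stayed at 12 and 0, while under quantile normalization 8 rose and 3 fell. At an unadjusted p, 1 fell with the replicate block and 1 when control library 3, control library 4 or Atad2 shRNA library 4 was left out. The largest rise was of Trim28, the corepressor that ZFP57 recruits, by 0.38 ± 0.03 (SE; limma adjusted p = 1.04e-09). Ctcf rose by 0.28 ± 0.03, the maintenance methyltransferase Dnmt1 by 0.25 ± 0.03 and the chromatin remodeller Atrx by 0.24 ± 0.04. Under quantile normalization these 3 rises were 0.18, 0.14 and 0.13. Zfp57 was at 9.80 ± 0.11 in control and 9.79 ± 0.11 in Atad2 shRNA libraries (SD, n = 4; limma adjusted p = 0.920). DNA methylation was not measured in these samples.

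The nearest tested genes outside the imprinted list served as neighbours of the 10 genes. Of 11 such neighbours, 2 rose, 4 fell and 5 did not pass, where 30.8% rose and 29.6% fell over all tested genes. Beside Plagl1, Sf3b5 fell by 0.40 ± 0.06 and Ltv1 rose by 0.15 ± 0.06 (SE), the latter a call lost without control library 1, 3 or 4 or Atad2 shRNA library 1 or 2. Beside Grb10, Cobl fell by 1.19 ± 0.06. Beside Igf2r, 4732491K20Rik fell, and Pnldc1 fell by 1.08 ± 0.36, a call lost without the second control or the first Atad2 shRNA library. Cep41 beside Mest differed by -0.05 ± 0.07 and did not pass.

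The genes most like Igf2 across the 8 libraries, by Pearson's r of log2 levels among 12799 genes with a mean of at least 5, were Rarg (r = 0.9997), Piezo2 (r = 0.998) and Ltbp3 (r = 0.997). Those most like H19 were Nid2 (r = 0.9993), Pcolce (r = 0.999) and Ablim1 (r = 0.999). The 8 points form 2 groups of 4 that differ for each of these genes, so r describes that difference above all, and 199 genes for Igf2 and 203 for H19 had r above 0.99. Between Igf2 and H19 themselves r was -0.985. No test was made of these correlations.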

How the data were processed

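Total RNA of 8 C2C12 libraries was sequenced after a strand-keeping cDNA synthesis, per the labels' protocols. The tools named, per the submitters' processing notes, are HTSeq 0.13.5, DESeq2 (no version), SAMtools 1.1 and bcl2fastq 2.20, with build mm10. Aligner, annotation and counting strand were not given in the sources used here. The authors deposited log2 values, which the values themselves show to be log2(x + 1) of counts divided by a size factor, to 3 decimals. Whole reads were recovered from the low values (tolerance 0.1 reads, 100% whole) and used for depth, read counts and RPKM, with merged exon lengths from GENCODE M21; high read counts are approximate.

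Genes with a mean log2 level above 3 entered a fit in limma 3.58.1 under R 4.3.3 (eBayes with intensity trend, no covariates, two-sided, Benjamini-Hochberg adjusted p under 0.05 over all 14703 tested genes), after a check on simulated data. Differences and SEs come from this fit. Tables and plots used Python 3.11.15 with pandas 2.3.3, NumPy 2.4.6, SciPy 1.17.1 and matplotlib 3.10.9. Coordinates, promoters and microRNAs were matched by symbol to RefSeq GRCm38.p6.

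The genes and lists were chosen with earlier results of these data known. The rule for naming genes covers Atad2, the 10 genes, imprinted genes at their loci, up to 4 others per direction and list by adjusted p, nearest neighbours and the 3 most correlated genes; genes of the 500 kb window, cell type markers, Igf1r, Zfp57, Peg12, Trappc9 and other genes outside it were named after their values were seen. As alternatives, the filter was dropped or set at a mean above 5, the offset was 8, values were median-centred or quantile-normalized, the intensity trend was dropped, recovered reads went through voom, the replicate number was a block, and each library was left out.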

Additional observations from a re-analysis of the deposited data

Results flagged for a closer look

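Among 66 groups of 4 values examined for a sample far from the others, 4 stood apart, where chance gives about 1 in 20. In the fourth Atad2 shRNA library, the H19 level was 11.508, against 10.82 to 10.901 in the other 3. The same library had a Peg3 level of 13.987, against 13.68 to 13.706. In the second control library, the Cdkn1c level was 6.008, against 6.654 to 6.742 in the other 3. The log2 ratio of Peg13 to Trappc9 was -1.462 in the first Atad2 shRNA library, against -1.651 to -1.63 in the others.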

How the results depend on the processing

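Of 112 values of the 7 tested genes among the 10 under the 16 alternatives, 111 kept their direction and side of the threshold, and the exception was Igf2r, which passed under quantile normalization at -0.13. Igf2 stayed between 3.91 and 4.22 and H19 between -3.47 and -3.24. Quantile normalization moved Cdkn1c most, to -0.89, and it still passed. Of all 728 values of named genes, 12 lost their call, most of them of Ltv1 and Pnldc1, and 10 changed sign. Under quantile normalization the sign changed for Slc22a18 (0.42), Osbpl5 (-0.0059), Wdr25 (0.0733), Gm6988 (0.40) and Mir29a (0.21). Leaving out 1 library gave ranges of -0.63 to 0.18 for Slc22a18, -0.0726 to 0.17 for Airn and -0.0913 to 0.0263 for Wdr25. None of these passed in the main test, and the cause was not tested. The count of maternally expressed genes that rose was 1 to 2 when 1 library was left out (2 without the second Atad2 shRNA library). Regulators of imprints that fell numbered 3 under quantile normalization (8 rose) and 0 to 1 with 1 library left out (1 without the third control or the fourth Atad2 shRNA library).

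Same-numbered libraries did not deviate together (r from -0.023 to 0.034, 3 of 8 libraries closest to their own number), so the numbers do not pair them. With the replicate block, 4562 genes were higher and 4379 lower, against 4528 and 4352. Low read counts limit Cdkn1c, Mest, Airn, Usp29, Ddc and Slc22a18, and Dlk1, Meg3 and Grb10 were under the filter. Without the filter, 4 of the genes were past the threshold as higher, the added one being Grb10. The levels cannot show which allele was transcribed.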
